A study of Mus musculus with 9 samples.

Results

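The genes described here are the SLAM family receptors and the SAP adaptors that carry their signals in natural killer (NK) cells, lymphocytes that kill virus-infected and tumour cells without prior priming. The members were taken by symbol from the annotation of the array: the receptors Slamf6, Slamf7, Slamf1, Cd84 and Ly9, the GPI-anchored ligand Cd48 and the adaptors Sh2d1a and Sh2d1b1. They are 8 of 22180 genes with a probe set of their own, and the brightest probe set stood for a gene. Of the 8 members, 7 passed the filter on dim probe sets, which kept values that reached the array median on 3 or more of the 9 arrays, and are among the 12579 genes tested. Slamf1 did not pass and is described by its values.

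SLAM receptors are immunoglobulin-like surface proteins of blood cells. Most of them bind the same receptor on the neighbouring cell, whereas CD48 is the ligand of 2B4 (Cd244a) and, in the mouse, of CD2. The cytoplasmic tails of most SLAM receptors carry tyrosine switch motifs that recruit the small SH2 adaptors SAP (Sh2d1a), EAT-2 (Sh2d1b1) and, in the mouse, ERT (Sh2d1b2). With these adaptors the receptors activate NK cells, through the kinase Fyn for SAP and through phospholipase C gamma for EAT-2. Without them the same motifs engage inhibitory phosphatases. Loss of SAP causes X-linked lymphoproliferative disease in humans.

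Splenic NK cells were taken from female mice on the C57BL/6N background. They lacked the Janus kinase Tyk2 (Tyk2-/-), which relays type I interferon and IL-12 signals, or carried a form of it without kinase activity (Tyk2K923E), or were wild type (WT). Each culture was a pool of cells from 3 to 4 mice, enriched with DX5 magnetic beads and grown for 7 days with rhIL-2 (5000 U/ml), an agent that all genotypes received. RNA was read on 1 array per genotype in each of 3 independent experiments, so that 3 arrays stand for each genotype and every experiment holds all 3 genotypes. Values are log2 units as the authors normalised them, and a difference of 1 is a doubling.

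The arrays of experiment 1 stood apart: they were split from the other 6 along the leading principal component, which carried 61.0% of the variance. Array medians lay between 5.42 and 5.48. The probe set of Tyk2 read 9.55, 8.63 and 8.85 in Tyk2-/- cells, 8.63, 8.43 and 8.52 in Tyk2K923E cells and 8.68, 8.56 and 8.63 in WT cells (experiments 1, 2 and 3). Tyk2 was thus not lower on the arrays labelled Tyk2-/-. Neither the deleted stretch nor the probe positions are in the sources used here, so the reading checks no label, and each direction is that of arrays labelled as such. All 10 NK cell markers, Ncr1, Klrb1c, Eomes and Gzmb among them, were above the array median on all 9 arrays. In each mutant against WT 6 of these 10 markers were negative and 4 positive (median -0.16 in Tyk2-/- and -0.13 in Tyk2K923E). In paired limma, 4 were lower and 0 higher at an unadjusted p under 0.05 in Tyk2-/- (9.08% of all genes). In Tyk2K923E 4 were lower and 1 higher (10.0%). Klrd1 differed by -0.35 in both mutants, and Klrk1 by -0.32 in Tyk2-/- and -0.47 in Tyk2K923E. Of 7 measured B cell markers, 6 were below the array median on every array. The T cell markers Cd3d, Cd3e, Cd3g, Cd8a and Cd8b1 were above it on every array, whereas Cd4 was under the filter. Of 7 measured monocyte and macrophage markers 3 were above the median on all arrays, and they differed in sign. From WT, Ly6c2 differed by -0.52 in Tyk2-/- cells and by -0.66 in Tyk2K923E cells. In the same order Cd68 differed by -0.08 and -0.24, whereas Cd14 differed by 0.20 and 0.42, none past the threshold. The remaining markers, Csf1r, Adgre1, Lyz2 and Fcgr1, were under the filter. The summed linear signal of the 7, to which Ly6c2 gave the largest share, was 2940 to 4838 in Tyk2-/- cells, 2646 to 4436 in Tyk2K923E cells and 4151 to 6916 in WT cells. The part of monocytes and macrophages in the results below was not tested.

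The comparison of each mutant with WT asks whether SLAM receptor expression in IL-2-expanded NK cells depends on Tyk2 or on its kinase activity. No member passed the test in either comparison. In limma with the experiments paired, 0 of 7 tested members had an adjusted p under 0.05 in Tyk2-/- against WT, where 11 of 12579 genes did (0.0874%). In Tyk2K923E against WT the count was again 0 of 7, against 11 of all genes (0.0874%). Between Tyk2-/- and Tyk2K923E it was 0 of 7, against 3 of all genes (0.0238%). At an unadjusted p under 0.05 the members were Cd84 and Sh2d1a in Tyk2-/- against WT (9.08% of all genes), Ly9 in Tyk2K923E against WT (10.0%) and Sh2d1a between the mutants (9.68%). In limma without pairing no member had an adjusted p under 0.05, as against 0.0318%, 0.00795% and 0.0238% of all genes in the same 3 comparisons. There only Ly9 in Tyk2K923E against WT had an unadjusted p under 0.05, where 2.08%, 4.21% and 2.41% of all genes did.

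The 95% intervals of the paired fit give the sizes of difference that the arrays leave possible. In Tyk2-/- against WT the 7 differences lay between -0.24 and 0.16, with a median of -0.12 (0.00 over all genes), and no interval went below -0.45 (Sh2d1a) or above 0.50 (Slamf6). In Tyk2K923E against WT they lay between -0.34 and 0.12, with a median of 0.02 (0.00 over all genes), and no interval went below -0.56 (Ly9) or above 0.42 (Sh2d1b1). Between Tyk2-/- and Tyk2K923E they lay between -0.32 and 0.19, with bounds of -0.53 (Sh2d1a) and 0.48 (Slamf6). The widest of these bounds, that of Ly9, corresponds to a 1.47-fold lower level. The intervals are for single genes and are not adjusted for the number of genes. They rest on 3 pooled cultures per genotype and on the spread left once genotype and experiment are taken off. The spread between experiments is thus not in them. For Sh2d1a in Tyk2-/- against WT the SE was 0.09 with pairing and 0.23 without it. An exact test over sign changes of 3 pairs cannot give a two-sided p below 0.25.

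**Figure D1:**
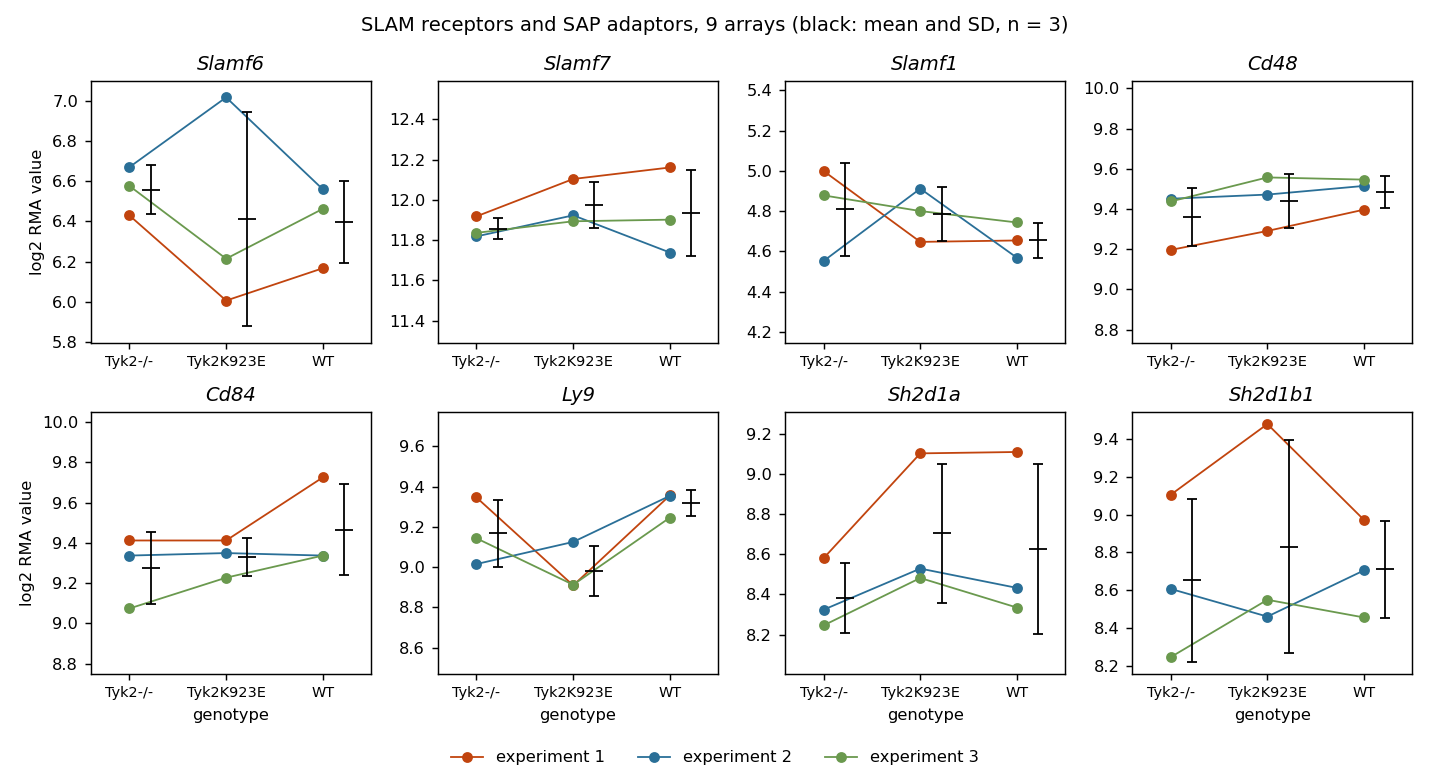
Log2 values of the 8 members (y axis, log2 RMA units, at least 1.3 units high in each panel) in Tyk2-/-, Tyk2K923E and WT cells (x axis); points are arrays, lines join the arrays of an experiment, and black bars are the mean and SD of 3 arrays. Ly9 is the member whose 3 Tyk2K923E arrays lie below all 3 WT arrays, and for Sh2d1a the arrays of experiment 1 lie above the others of their genotype.

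Among the self-binding receptors, Ly9 (CD229) showed the largest difference from WT of the 7 tested members. It read 8.91, 9.13 and 8.91 in Tyk2K923E cells and 9.36, 9.35 and 9.25 in WT cells, so that the groups did not overlap. The mean was 8.98 ± 0.12 in Tyk2K923E cells and 9.32 ± 0.06 in WT cells (SD, n = 3 each), a difference of -0.34 (SE 0.10, 1.26-fold lower) that missed the threshold (adjusted p = 0.266 in limma). In that comparison 1 of 7 members, Ly9, had groups that did not overlap, as had 7.23% of all genes; in Tyk2-/- against WT 0 of 7 had (5.33% of all genes), and between the mutants 0 of 7 (5.51%). Ly9 was lower in Tyk2K923E cells in all 3 experiments, as were 14.6% of all genes, and no member was higher in all 3 (16.2%). In Tyk2-/- cells Ly9 read 9.35, 9.02 and 9.14, within or below the WT range, and differed from WT by -0.15 (adjusted p = 0.682), or by -0.03 without Tyk2-/- replicate 2 and by -0.25 without Tyk2-/- replicate 1. Between the mutants Ly9 differed by 0.19 (95% interval -0.04 to 0.41, adjusted p = 0.551), or by 0.06 without experiment 1 and by 0.33 without experiment 2, so Ly9 was not shown to respond differently in them.

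T cells express Ly9 too. In Tyk2K923E against WT all 9 tested T cell markers had negative differences (median -0.36), as had 6178 of 12579 genes (median 0.00). None of the 9 passed the test, and 5 had an unadjusted p under 0.05, as had 10.0% of all genes. In experiment 2, where Ly9 differed by -0.23, 6 of the 9 were positive, among them Cd3e (0.19) and Cd3g (0.16), whereas Cd8a was at -0.15. Cd8a was the only 1 of the 9 that was lower in all 3 experiments, as were 14.6% of all genes. The summed linear signal of the T cell markers was 4755 to 6283 in Tyk2K923E cells and 5715 to 8606 in WT cells. In experiment 2 it was 6283 in Tyk2K923E cells and 5715 in WT cells. Cd8a differed by -0.92 (adjusted p = 0.173) and Cd3e by -0.38 (adjusted p = 0.504). In Tyk2-/- against WT 8 of 9 were negative (median -0.11), as were 6046 of 12579 genes (median 0.00). The summed T cell signal was 5986 to 8640 in Tyk2-/- cells. In RNA from whole cultures, fewer cells of a type and less RNA per cell cannot be told apart, and the part of T cells in the values of Ly9 was not tested.

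Cd84, another self-binding receptor, read 9.41, 9.34 and 9.07 in Tyk2-/- cells, 9.41, 9.35 and 9.23 in Tyk2K923E cells and 9.73, 9.34 and 9.34 in WT cells. The WT array of experiment 1 was the highest and the remaining 8 arrays overlapped. Cd84 differed from WT by -0.19 in Tyk2-/- cells (SE 0.08, adjusted p = 0.524) and by -0.14 in Tyk2K923E cells (adjusted p = 0.634). Without WT replicate 1 these differences were -0.12 and -0.06, and with arrays left out in turn they ran between -0.29 and -0.12 in Tyk2-/- cells and between -0.22 and -0.05 in Tyk2K923E cells. In experiment 2 these differences were close to 0, at 0.00 and 0.01.

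Slamf6 (Ly108), which lets NK cells sense the same receptor on other haematopoietic cells, read 6.43, 6.67 and 6.58 in Tyk2-/- cells, 6.01, 7.02 and 6.21 in Tyk2K923E cells and 6.17, 6.56 and 6.46 in WT cells. Slamf6 was higher in Tyk2-/- than in WT cells in all 3 experiments, by 0.26, 0.11 and 0.11, as were 16.5% of all genes. The mean difference of Slamf6 was 0.16 (SE 0.15, adjusted p = 0.779), and it was -0.04 when its dimmer probe set was averaged in. The Tyk2K923E arrays were the most scattered, spanning both the lowest and the highest of the 9 values. Their difference from WT was 0.02 (SE 0.15), or -0.20 without experiment 2. A dimmer probe set of Slamf6 read 5.09 to 5.16 in Tyk2-/- cells, 5.19 to 5.67 in Tyk2K923E cells and 5.21 to 5.62 in WT cells and failed the filter, so the probe sets disagreed on the order of Tyk2-/- and WT.

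Slamf7 (CRACC), which activates NK cells through EAT-2, read 11.92, 11.82 and 11.84 in Tyk2-/- cells, 12.10, 11.92 and 11.89 in Tyk2K923E cells and 12.16, 11.74 and 11.90 in WT cells. All groups overlapped. It differed from WT by -0.08 in Tyk2-/- cells (95% interval -0.25 to 0.09) and by 0.04 in Tyk2K923E cells (95% interval -0.13 to 0.21). These signs turned without experiment 1 (0.01 in Tyk2-/-) and without experiment 2 (-0.03 in Tyk2K923E).

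Slamf1 (CD150), a receptor of activated T cells, B cells and macrophages, stayed below the median on all 9 arrays. It read 5.0, 4.55 and 4.88 in Tyk2-/- cells, 4.65, 4.91 and 4.80 in Tyk2K923E cells and 4.65, 4.57 and 4.74 in WT cells. Whether such values lie above the background of the array cannot be told from the deposited file. In the fit without a filter Slamf1 differed from WT by 0.15 in Tyk2-/- cells (adjusted p = 0.864) and by 0.13 in Tyk2K923E cells (adjusted p = 0.855).

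Cd48, the ligand of 2B4, was the least variable over the 9 arrays among the 7 tested members, with a range of 0.36. It read 9.20, 9.45 and 9.44 in Tyk2-/- cells, 9.29, 9.47 and 9.56 in Tyk2K923E cells and 9.40, 9.51 and 9.55 in WT cells. Within every experiment the Tyk2-/- array was the lowest. Cd48 differed from WT by -0.12 in Tyk2-/- cells (SE 0.06, adjusted p = 0.58) and by -0.05 in Tyk2K923E cells (adjusted p = 0.852). Cd48, Ly9 and Sh2d1a were the 3 of 7 members lower in Tyk2-/- than in WT cells in all 3 experiments, against 13.6% of all genes.

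**Figure D2:**
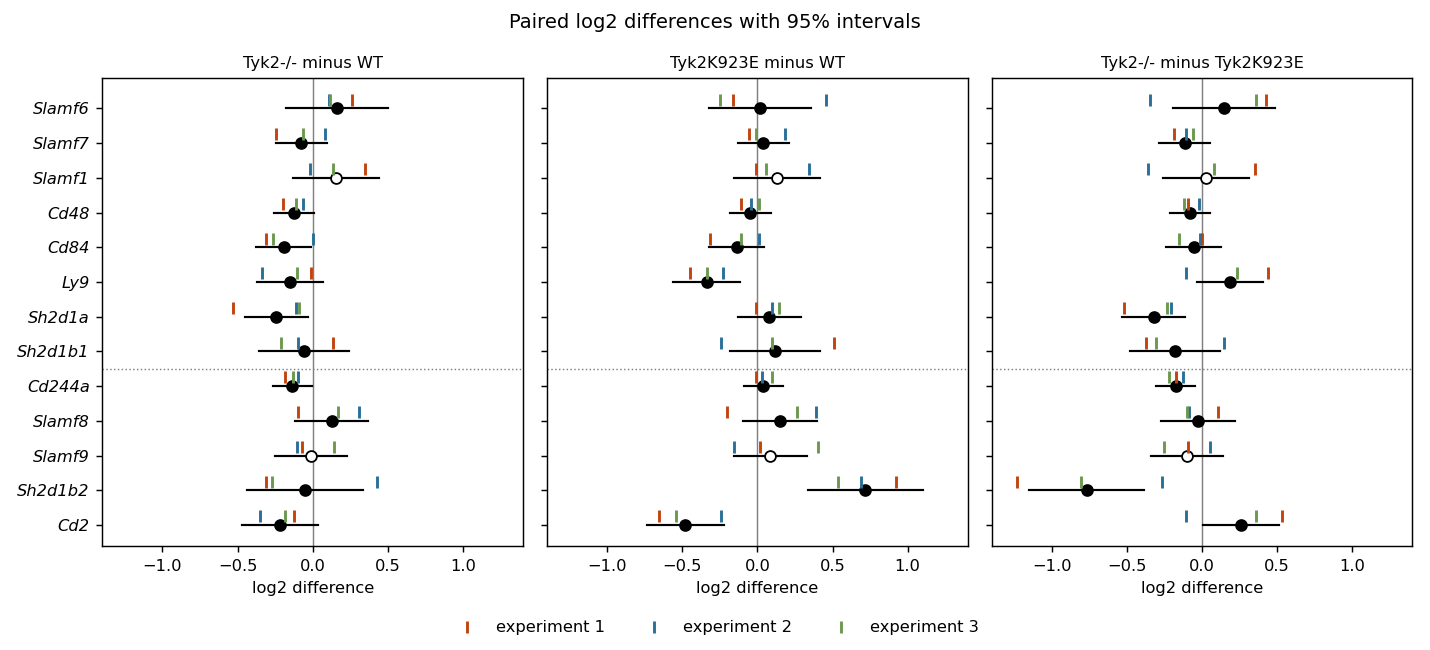
Log2 differences (x axis) of the 8 members (above the dotted line) and of 5 related genes (below it) in the 3 comparisons. Circles and bars are the difference and its 95% interval from the paired fit, open circles are genes under the filter, and coloured ticks are the differences within each experiment. Among the tested members, the intervals of Cd84 and Sh2d1a in Tyk2-/- minus WT, of Ly9 in Tyk2K923E minus WT and of Sh2d1a in Tyk2-/- minus Tyk2K923E exclude 0 before adjustment, and none of the 8 members passed after it.

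The adaptor Sh2d1a (SAP), encoded on chromosome X, read 8.58, 8.32 and 8.25 in Tyk2-/- cells, 9.10, 8.53 and 8.48 in Tyk2K923E cells and 9.11, 8.43 and 8.33 in WT cells. The Tyk2-/- array was the lowest of its experiment each time, but the groups overlapped, with all arrays of experiment 1 higher than those of the same genotype in experiments 2 and 3. Against WT, Sh2d1a differed by -0.24 in Tyk2-/- cells (SE 0.09, 1.18-fold lower, adjusted p = 0.485), or by -0.10 without experiment 1. Within the experiments that difference was -0.53, -0.11 and -0.09. In Tyk2K923E cells it was 0.08 (95% interval -0.13 to 0.29, adjusted p = 0.836). Between Tyk2-/- and Tyk2K923E cells Sh2d1a differed by -0.32 (SE 0.09, 1.25-fold lower, adjusted p = 0.452), in the same direction in 3 of 3 experiments. Slamf7, Cd48 and Sh2d1a were the 3 of 7 members lower in Tyk2-/- than in Tyk2K923E cells in every experiment, against 14.3% of all genes, and none was higher in every experiment (14.2%).

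The adaptor Sh2d1b1 (EAT-2) read 9.11, 8.61 and 8.25 in Tyk2-/- cells, 9.48, 8.46 and 8.55 in Tyk2K923E cells and 8.97, 8.71 and 8.46 in WT cells. In every genotype the array of experiment 1 was the highest, and the genotypes overlapped. Sh2d1b1 differed from WT by -0.06 in Tyk2-/- cells (SE 0.13, adjusted p = 0.917) and by 0.12 in Tyk2K923E cells (SE 0.13, adjusted p = 0.819). Both signs turned when arrays were left out: it was 0.02 without experiment 3 in Tyk2-/- and -0.08 without experiment 1 in Tyk2K923E.

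Its neighbour Sh2d1b2, which encodes the related adaptor ERT, had wider differences. It read 9.75, 9.47 and 8.79 in Tyk2-/- cells, 10.99, 9.74 and 9.59 in Tyk2K923E cells and 10.06, 9.04 and 9.06 in WT cells. The Tyk2K923E array was the highest of its experiment each time, and the groups overlapped across experiments. Sh2d1b2 differed from WT by 0.72 in Tyk2K923E cells (SE 0.17, 1.64-fold higher, adjusted p = 0.184) and by -0.05 in Tyk2-/- cells (adjusted p = 0.947). Between Tyk2-/- and Tyk2K923E cells it differed by -0.77 (SE 0.17, adjusted p = 0.41). None of these passed, except that Tyk2K923E against WT passed without Tyk2-/- replicate 2 (adjusted p = 0.0456), where the difference stayed at 0.72. Basophil markers had differences of the same sign in Tyk2K923E cells: Cpa3 differed from WT by 0.91 in Tyk2K923E cells and by -0.02 in Tyk2-/- cells, and Mcpt8 by 0.77 and 0.49, none past the threshold. Mcpt8 gave the largest share of the summed basophil signal. This sum was 1342 to 2283 in Tyk2-/- cells, 1581 to 2365 in Tyk2K923E cells and 1076 to 1380 in WT cells. Fcer1a, Ms4a2, Hdc and Gata2, the other 4 of 6 markers, were below the median on every array. The part of such cells in the values of Sh2d1b2 was not tested.

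The upstream sequences of these neighbouring adaptor genes are shown because they are close copies, whereas the array values of Sh2d1b1 and Sh2d1b2 in Tyk2K923E cells differed in size. Each is the 250 bases before the start that RefSeq annotates on GRCm38.p6, plus strand, at chr1:170277068-170277317 for Sh2d1b1 and at chr1:170232621-170232870 for Sh2d1b2. Capitals mark the longest run that both share.
Sh2d1b1: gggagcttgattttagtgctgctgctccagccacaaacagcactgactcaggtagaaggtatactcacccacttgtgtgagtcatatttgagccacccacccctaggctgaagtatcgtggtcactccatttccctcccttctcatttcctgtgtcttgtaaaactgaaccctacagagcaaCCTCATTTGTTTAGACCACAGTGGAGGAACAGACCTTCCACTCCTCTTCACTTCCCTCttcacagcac
Sh2d1b2: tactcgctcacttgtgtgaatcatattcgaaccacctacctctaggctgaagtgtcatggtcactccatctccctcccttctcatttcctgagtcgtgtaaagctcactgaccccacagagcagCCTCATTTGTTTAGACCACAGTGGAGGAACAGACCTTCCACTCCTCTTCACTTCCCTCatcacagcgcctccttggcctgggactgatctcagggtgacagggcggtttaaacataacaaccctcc
The run is 58 bases long and ends 11 bases before the annotated start of Sh2d1b1 and 69 bases before that of Sh2d1b2. In a global alignment 171 of 189 aligned bases were identical (90.5%), with bases opposite gaps not counted. Between the other pairs of upstream sequences of members and relatives this share ran from 47.5% (Slamf6 and Cd244a) to 63.7% (Slamf6 and Cd84). The positions of the array probes are not in the sources used here, so whether transcripts of so similar genes bind each other's probes was not tested.

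Promoter windows were in the RefSeq table for 6 of the 8 members, not for Ly9 and Sh2d1a. The STAT-type motif TTCNNNGAA, which reads the same on both strands, was searched in these 250 bases, as was the interferon-response core GAAANNGAA on both strands; matches of the motifs may overlap by the letters GAA. The first was in none of the windows of Slamf6, Slamf7, Slamf1, Cd48, Cd84 and Sh2d1b1, and in 7.02% of all 32851 windows. The second was found 1 time, in the window of Cd84, and in 7.13% of all windows. A longer form of this core had matched no member, and the core was shortened by its last A after that was seen. The match in Cd84 thus rests on the shorter form. A match is a description of the letters and not a binding site, and no match says only that these letters are not in the window. In the RefSeq annotation 7 of the 8 members lie on chromosome 1, in the order Sh2d1b1, Ly9, Slamf7, Cd48, Slamf1, Cd84 and Slamf6, with Cd244a between Sh2d1b1 and Ly9. Ly9 and its neighbour Slamf7 in this order differed from WT by -0.34 and 0.04 in Tyk2K923E cells.

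The remaining relatives gave no call in any comparison either. Cd244a (2B4), the NK cell receptor for CD48, read 11.35, 11.30 and 11.20 in Tyk2-/- cells, 11.52, 11.43 and 11.42 in Tyk2K923E cells and 11.53, 11.40 and 11.33 in WT cells. It differed by -0.14 between Tyk2-/- and WT (SE 0.06, adjusted p = 0.523), by 0.04 between Tyk2K923E and WT (adjusted p = 0.876) and by -0.18 between Tyk2-/- and Tyk2K923E (SE 0.06, adjusted p = 0.452). For Cd244a the arrays of the mutants did not overlap with each other, as for 5.51% of all genes. Cd2, the adhesion receptor that also binds CD48, read 8.17, 7.64 and 8.14 in Tyk2-/- cells, 7.64, 7.75 and 7.79 in Tyk2K923E cells and 8.29, 7.99 and 8.33 in WT cells. All 3 Tyk2K923E arrays of Cd2 lay below the WT arrays, and 7.23% of all genes had groups that did not overlap. From WT, Cd2 differed by -0.48 in Tyk2K923E cells (SE 0.11, adjusted p = 0.181 in limma), with -0.65, -0.24 and -0.54 in experiments 1, 2 and 3. In Tyk2-/- cells Cd2 differed from WT by -0.22 (adjusted p = 0.598 in limma), with -0.12, -0.35 and -0.18. Between Tyk2-/- and Tyk2K923E cells Cd2 differed by 0.26 (adjusted p = 0.504 in limma). T cells express Cd2 too, and their part in its values was not tested. Slamf8 and Slamf9, family members without switch motifs, lay near or below the array medians. Slamf8 differed from WT by 0.13 in Tyk2-/- cells and by 0.15 in Tyk2K923E cells (adjusted p = 0.765 and 0.718), and Slamf9 was below the median on all 9 arrays.

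**Figure D3:**
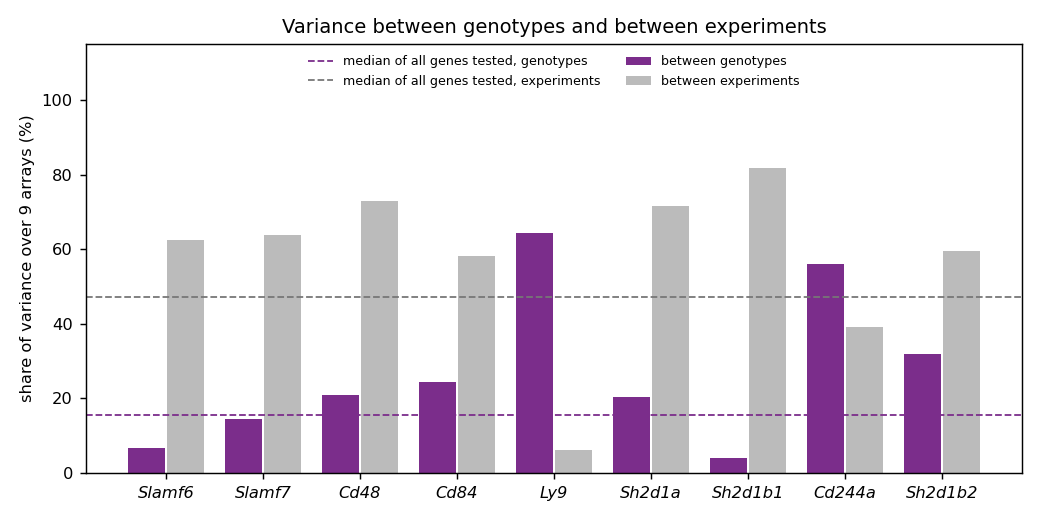
Share of the variance over 9 arrays (y axis, percent) that lay between the 3 genotypes (purple) and between the 3 experiments (grey) for the 7 tested members and for Cd244a and Sh2d1b2; dashed lines are the medians over all genes tested. Ly9 and Cd244a are the 2 of these 9 genes with the larger share between genotypes.

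Of the 7 tested members, 6 had more of their variance between experiments than between genotypes. The median gene had 47.2% of its variance between experiments and 15.5% between genotypes. For Sh2d1b1 the shares were 81.8% and 4.11%, for Cd48 72.8% and 20.8%, and for Sh2d1a 71.6% and 20.4%. Ly9 was the exception among the 7 tested members, with 6.16% between experiments and 64.4% between genotypes. On average 5 of the 7 members, Slamf7, Cd84, Ly9 and both adaptors, were highest in experiment 1: Sh2d1b1 averaged 9.19 there and 8.59 and 8.42 in experiments 2 and 3, and Sh2d1a averaged 8.93, 8.43 and 8.35. Cd48 and Slamf6 were lowest in it, with Slamf6 averaging 6.20, 6.75 and 6.42.

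With the mean of each experiment taken off, the members did not vary as a single group over the 9 arrays. Cd48 and Cd84 varied together (Pearson r = 0.85), as did Slamf7 and Sh2d1a (r = 0.83). The members Slamf6 and Sh2d1b1 went opposite ways (r = -0.73). Of the relatives, Cd244a varied with Sh2d1a (r = 0.90), and Sh2d1b2 went opposite to Ly9 (r = -0.88). The arrays share experiments and genotypes, so these values are descriptions with no test. Among all genes tested, those most like Ly9 were Limd2 (r = 0.996), Itpr2, an inositol trisphosphate receptor (r = 0.994), and BC147527 (r = 0.990). In Tyk2K923E against WT these differed by -0.43, -0.15 and -0.69, none past the threshold. Those most like Sh2d1a were Gpr174, a G protein-coupled receptor of lymphocytes (r = 0.992), Cenpl, a centromere protein (r = 0.990), and Bloc1s3 (r = 0.981). In Tyk2-/- against WT they differed by -0.21, -0.06 and -0.18, again none past the threshold.

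Signalling genes below the receptors were described from lists of kinases and adaptors and of inhibitory phosphatases and regulators. Of 18 kinases and adaptors, 16 were tested. In Tyk2-/- against WT none passed and none had an unadjusted p under 0.05 (9.08% of all genes had), with a median of -0.01. The smallest p-values belonged to Plcg2, a phospholipase C gamma that NK cells use (0.14, adjusted p = 0.593), Vav2 (0.17, adjusted p = 0.619), Vav1 (-0.10, adjusted p = 0.664) and Cbl (0.12, adjusted p = 0.677). In Tyk2K923E against WT none passed, with a median of 0.00. There 2 positive and 4 negative differences had an unadjusted p under 0.05, as had 10.0% of all genes. The ubiquitin ligase Cblb differed by 0.21 (SE 0.07, adjusted p = 0.312), the adaptor Lcp2 (SLP-76) by -0.18 (adjusted p = 0.368), the exchange factor Vav2 by 0.24 (adjusted p = 0.437) and Plcg1, the isoform typical of T cells, by -0.43 (adjusted p = 0.467). The 3 differences of Plcg1 were -1.01, 0.10 and -0.38 in experiments 1, 2 and 3. Fyn, the kinase that SAP recruits, differed from WT by -0.05 in Tyk2-/- cells and by -0.14 in Tyk2K923E cells (adjusted p = 0.838 and 0.547).

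**Figure D4:**
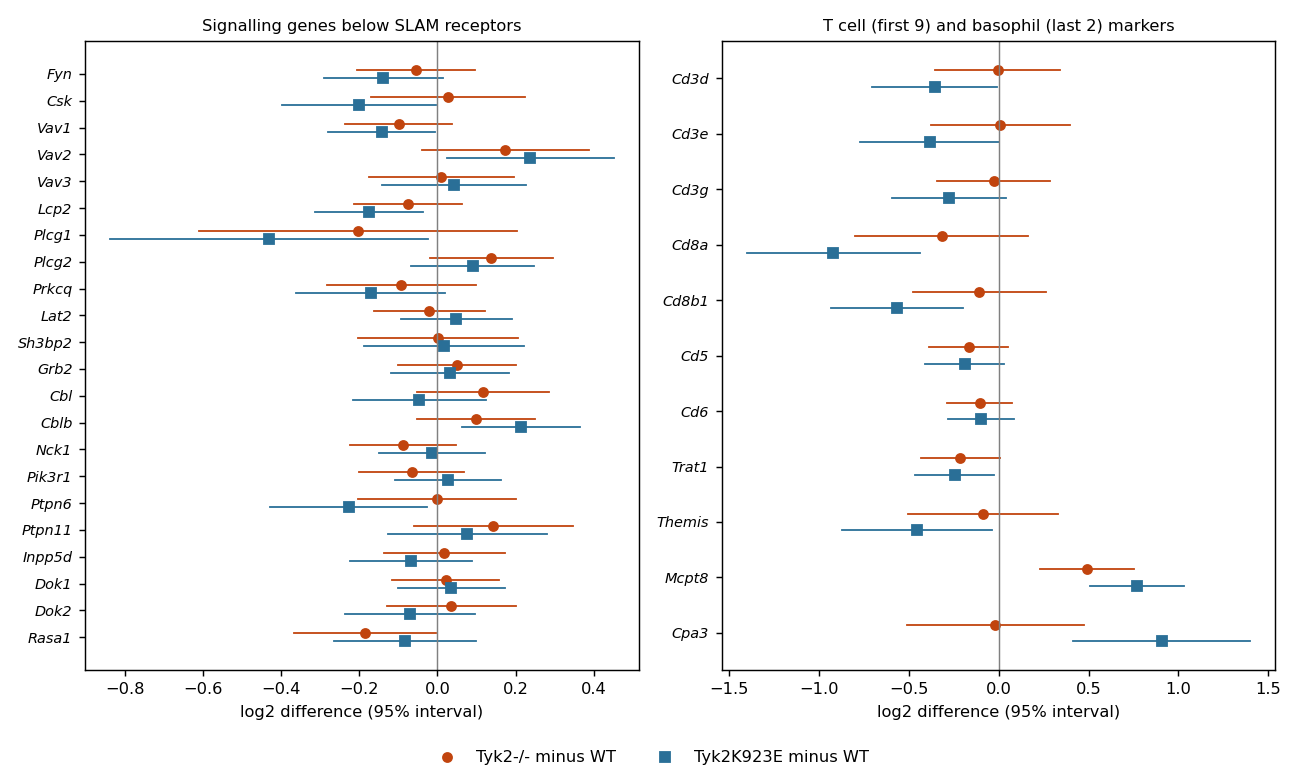
Log2 differences from WT (x axis) with 95% intervals for Tyk2-/- (circles) and Tyk2K923E (squares). The left panel holds the 16 kinases and adaptors and the 6 phosphatases and regulators tested, and the right panel the 9 T cell and 2 basophil markers; Plcg1 has the widest interval on the left, and Cd8a and Cpa3 the lowest and the highest Tyk2K923E values on the right.

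Of 7 inhibitory phosphatases and regulators, 6 were tested and none passed in any comparison. Ptpn6 (SHP-1), which SLAM receptors recruit when adaptors are missing, differed from WT by -0.0014 in Tyk2-/- cells and by -0.23 in Tyk2K923E cells (SE 0.09, adjusted p = 0.434). Rasa1, a Ras GTPase-activating protein, differed by -0.18 in Tyk2-/- cells (adjusted p = 0.545) and by -0.08 in Tyk2K923E cells (adjusted p = 0.792). Ptpn11 (SHP-2) differed by 0.14 and 0.08 from WT in the same order of mutants, Inpp5d (SHIP1) by 0.02 and -0.07, Dok1 by 0.02 and 0.04 and Dok2 by 0.04 and -0.07. Over the relatives, pathway genes and cell type markers together, Itga2, the CD49b chain that the DX5 beads bind, was the only gene past the threshold: it differed by -0.71 in Tyk2K923E against WT (adjusted p = 0.0375 in limma, 0.155 without the replicate block).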

How the data were processed

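Per the submitters' processing notes, the authors normalised the arrays with RMA in Partek 6.6, and the deposited values are on a log2 scale (1.10 to 14.1, 41345 probe sets, 9 arrays). They were used as deposited. Probe sets were named through the platform annotation: 23521 carried 1 symbol, 1814 several and 16010 were not listed. The brightest probe set past the filter (array median on 3 of 9 arrays) stood for a gene. The listed symbol Cd244 is Cd244a in the annotation, and Lck, Lyn and Inpp5b had no probe set of their own.

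The test was limma with empirical Bayes (two-sided), fitted over all 9 arrays with the experiment as a block, and p-values were adjusted by Benjamini-Hochberg over 12579 genes per comparison, with a threshold of 0.05. Labels give experiment numbers, and deviations from the genotype mean correlated at 0.383 to 0.787 between arrays of the same experiment and at -0.71 to 0.559 across experiments. Differences are the genotype named first minus the other. SDs are over 3 arrays, and the number of arrays limits the precision.

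The members and lists were chosen with earlier results of these data known. Named were all members, their relatives, from each pathway list the 4 smallest p-values per comparison with WT and any call, and the 3 genes most correlated with the 2 members of smallest p; Fyn and markers were added beside results. Alternatives concerned the block, filter, scaling, variance prior, weights, probe sets, genotypes in the fit and left-out arrays. The interferon core was shortened by its last A after the longer form had matched no member. Scripts were tested on simulated data. Tools were limma 3.58.1 and statmod 1.5.0 in R 4.3.3, and Biopython 1.88 and matplotlib 3.10.9 in Python 3.11.15.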

Additional observations from a re-analysis of the deposited data

How the results depend on the processing

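No tested member passed the threshold in limma in any of the 3 comparisons under any of the 22 alternatives that held it. Slamf6 was in 21 of them, and Slamf1 was not among the tested members. The fit without the replicate block was 1 of the alternatives, so the block changed no call of a member. Signs that turned belonged to small differences. For Slamf6 the mean over probe sets gave -0.041 in Tyk2-/- against WT and -0.049 between Tyk2-/- and Tyk2K923E, and leaving out arrays gave -0.22 to 0.15 in Tyk2K923E against WT. For Slamf7, leaving out arrays gave -0.15 to 0.0073 in Tyk2-/- and -0.035 to 0.11 in Tyk2K923E against WT, and for Sh2d1b1 -0.20 to 0.043 and -0.076 to 0.30. For Sh2d1b2 in Tyk2-/- against WT it gave -0.30 to 0.13, with 0.0033 under array weights, and for Slamf8 between the mutants -0.15 to 0.049. Counts over all genes, against which the members were read, moved more. In Tyk2-/- against WT 11 genes passed, against 4 without the replicate block, 4 without a filter, 19 with the 70th percentile filter, 22 with an intensity trend, 26 with array weights, 6 with only the 2 genotypes and 3 to 11 with arrays left out. In Tyk2K923E against WT 11 passed, against 1, 1, 29, 41, 66, 2 and 1 to 34 in the same order, 17 with quantile normalisation and 20 with median centring. Between the mutants 3 passed, and 2 to 6 with arrays left out. Of the relatives, pathway genes and markers 1 passed (Itga2, Tyk2K923E against WT), against 0 without the block, without a filter and with only the 2 genotypes, 3 with the 70th percentile filter, an intensity trend and array weights, and 0 to 3 with arrays left out. The causes were not tested, except that leaving out arrays removes degrees of freedom. Quantile normalisation and median centring moved the median of all genes by under 0.02. No array measured background, so low values of Slamf1, Slamf8 and Slamf9 may lie at it.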
